A study of Mus musculus with 6 samples.

Results

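The genes described here are 36 rows of a mouse gene count table that encode the protein-folding machinery of the endoplasmic reticulum (ER) and the integrated stress response. They were taken by gene symbol, and all 36 were found, each once, among 55335 genes. They fall into 4 subgroups: 14 ER chaperones and folding enzymes, 4 genes of ER-associated degradation, 4 stress sensors and 14 genes of the ATF4 and CHOP branch. The 6 libraries hold mRNA of bone marrow-derived macrophages, primary cells grown with 20 ng/mL of the growth factor M-CSF in DMEM with 10% serum and 1% antibiotic. Every culture received, on day 5, medium that injured pancreatic acinar cells had conditioned (PAC-CM). Cells of 3 libraries had PAC-CM alone, and those of the other 3 also had the plant glycoside kinsenoside at 400 µM. The labels give neither strain, sex nor age of the mice, nor whether replicates were separate cultures or animals, so p-values here reflect sample-to-sample spread, which could be technical. Every culture received PAC-CM, so the response of these genes to PAC-CM itself was not measured.

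Proteins that enter the ER are folded there by chaperones such as BiP (Hspa5) and by disulfide isomerases, and those that fail to fold are sent back to the cytosol for destruction. When unfolded proteins build up, 3 sensors in the ER membrane respond: IRE1 (Ern1), which splices the mRNA of Xbp1, ATF6, which is cut to release a transcription factor, and PERK (Eif2ak3), which phosphorylates the initiation factor eIF2 alpha. The last step is shared with kinases that sense amino acid shortage, viral RNA and heme shortage, and it favours translation of the transcription factor ATF4, whose targets include genes of amino acid synthesis and the factor CHOP (Ddit3). Macrophages that secrete cytokines depend on this machinery. Gene counts show transcript levels only, so splicing of Xbp1, cutting of ATF6, phosphorylation of eIF2 alpha and the ATF4 protein were not measured.

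Total counts ran from 41125059 to 47461702 per library, so that a gene at 0 could still have up to 3 counts, or 0.0632 to 0.0729 CPM (counts scaled to a library total of 1000000), by counting error alone. Macrophage markers summed to between 20500 and 25300 CPM. Markers of cells especially rich in ER were low: 10 pancreatic acinar markers summed to between 5.18 and 7.53 CPM. Cela1, the highest of them, had 83 to 184 counts per library. Amy2b was at 0 in every library, but its gene model is annotated as a pseudogene. Among B cell and plasma cell markers, Jchain was at most 0.255 CPM. Sdc1, which is not specific to plasma cells, was at 723 to 1020 CPM. None of the 8 marker lists had a gene that passed the test.

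None of the 36 genes passed the test of kinsenoside against PAC-CM alone. In edgeR's quasi-likelihood test over 13901 genes, all 36 were tested and 0 had an adjusted p under 0.05, where 0.511% of all tested genes did (0.209% higher with kinsenoside and 0.302% lower). The smallest adjusted p among them was 0.256. DESeq2, which called 3.6% of the genes it tested, and limma-voom also called 0 members. At an unadjusted p under 0.05 there were 3 of the 36 (8.33%), against 14.9% of all tested genes, and all 3 (Pdia4, Cebpg and Aldh1l2) were higher with kinsenoside, beside 6.74% of tested genes higher and 8.19% lower. The 3 libraries of one group lay wholly above or below those of the other for 5 of the 36 (13.9%), against 22.5% of all tested genes. Of the estimates 20 lay above 0 and 16 below, and the median log2 fold change was 0.03, beside -0.01 over all tested genes.

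The size of change that these libraries leave possible is given by the 95% interval of each fold change. For 29 of the 36 genes, or 80.6%, the interval lay within 1.5-fold in either direction, as it did for 61.1% of all tested genes. These shares were not matched for abundance, so they do not compare the members with genes of similar level. That held for all 14 chaperones, all 4 degradation genes and all 4 sensors, but for 7 of the 14 genes of the ATF4 and CHOP branch.

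**Figure D1:**
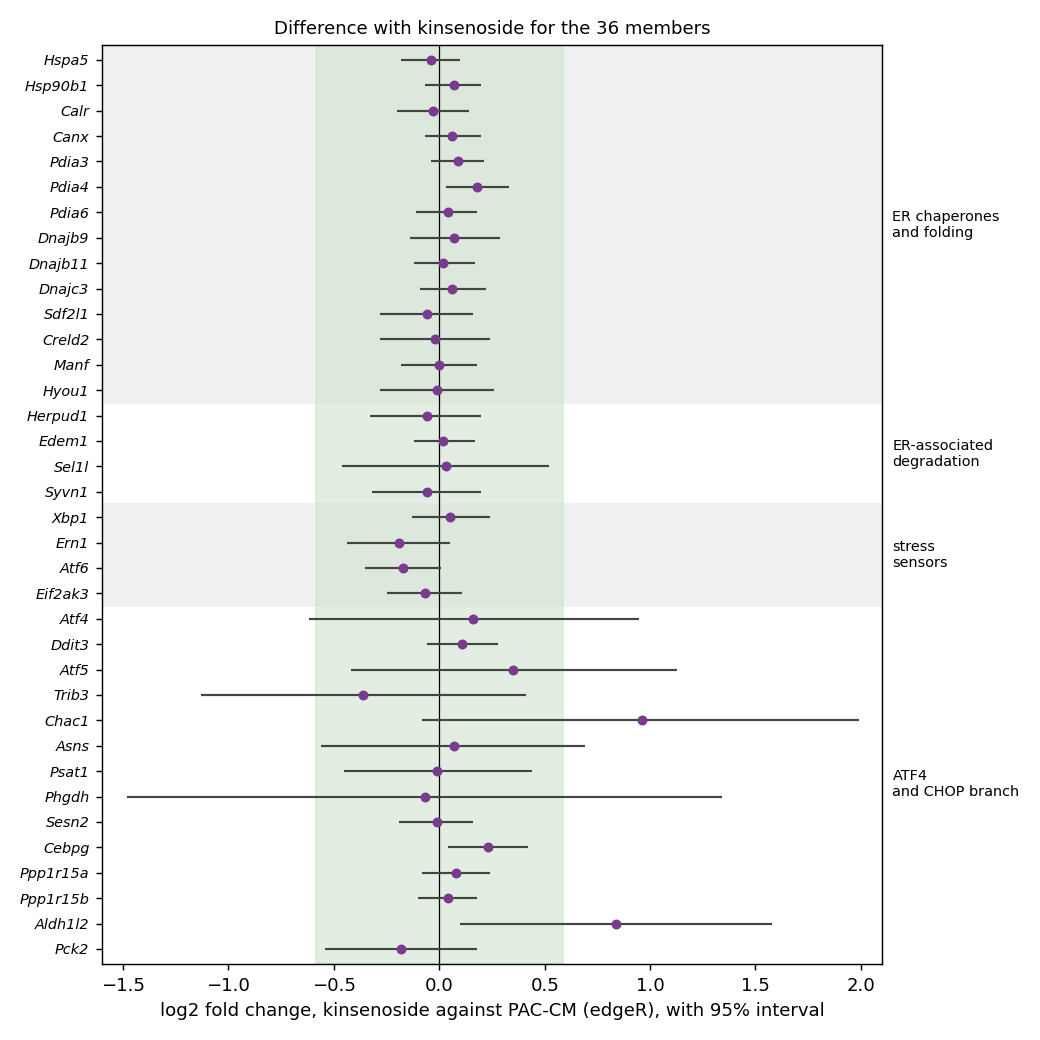
Log2 fold change of each of the 36 members, kinsenoside against PAC-CM (points, edgeR), with 95% intervals (lines), 3 libraries per group; the green band marks 1.5-fold in either direction. Intervals of the chaperones, degradation genes and sensors stay inside the band, while 7 of the 14 genes of the ATF4 and CHOP branch, among them Atf4, Trib3 and Phgdh, reach beyond it.

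The chaperones and folding enzymes were among the more abundant transcripts and the steadiest of the 4 subgroups: their median ratio of highest to lowest library was 1.14, beside 1.33 for the degradation genes, 1.26 for the sensors and 1.76 for the ATF4 and CHOP branch. Together the 14 genes took 0.401% ± 0.0156 of all counts with PAC-CM alone and 0.396% ± 0.00454 with kinsenoside (SD, n = 3 per group). Levels of different genes were compared per kilobase of exon, with all annotated exons of a gene merged. On that scale Calr was the highest of all 36 members at 314 CPM per kilobase over the 6 libraries. Hspa5 followed at 178, Pdia3 at 163 and Hsp90b1 at 148. The lowest of this subgroup on that scale was Hyou1 at 9.90, with a merged exon length of 7230 bases. By CPM, Hyou1 at 71.6 lay above Dnajb9 at 28.2. The median log2 fold change of the subgroup was 0.03, with estimates from -0.06 (Sdf2l1) to 0.18 (Pdia4).

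**Figure D2:**
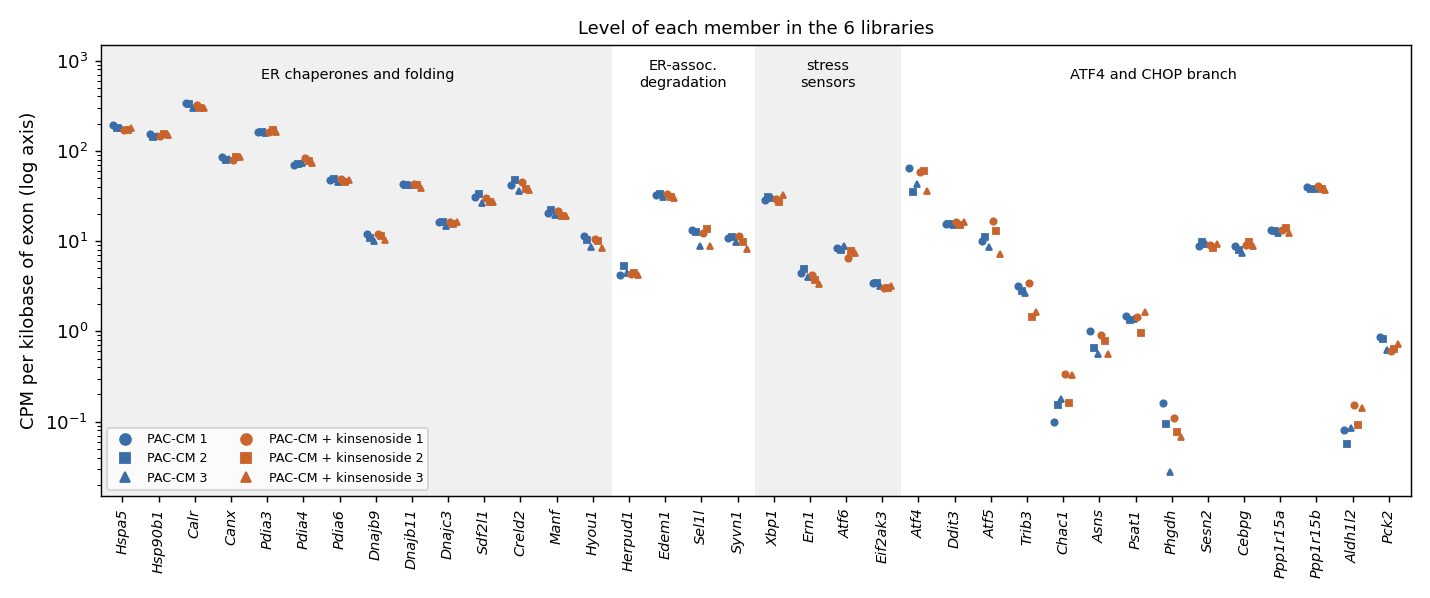
Level of each member in each library, as CPM per kilobase of exon on a log axis; colour gives the group and marker shape the replicate number. The 6 points of most members lie on top of each other, and levels span from 314 (Calr, mean over 6 libraries) to 0.0892 (Phgdh).

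Calr encodes calreticulin, a calcium-binding chaperone of glycoproteins (ENSMUSG00000003814, chromosome 8, 84841850 to 84846934, GRCm38). Its values were 978, 958 and 851 CPM with PAC-CM alone (replicates 1 to 3) and 932, 855 and 855 CPM with kinsenoside. The kinsenoside values lay within the range of the PAC-CM values. The estimate on the log2 scale was -0.03 (SE 0.0735, adjusted p = 0.889), with an interval of 0.87-fold to 1.10-fold.

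Hspa5 encodes BiP, the main Hsp70 of the ER and the usual reporter of ER stress (ENSMUSG00000026864, chromosome 2, 34771970 to 34777547). It was at 815, 766 and 749 CPM with PAC-CM alone and at 728, 719 and 750 CPM with kinsenoside. The highest kinsenoside library was just above the lowest PAC-CM library, so the groups overlapped. The log2 fold change was -0.04 (SE 0.0603, adjusted p = 0.811), and the interval ran from 0.88-fold to 1.07-fold.

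The other abundant chaperones were as even. Hsp90b1, the Hsp90 of the ER (GRP94), was at 593 ± 20.8 CPM with PAC-CM alone and 603 ± 18.3 CPM with kinsenoside (SD, n = 3 per group). Canx, the membrane-bound relative of calreticulin, was at 383 ± 12.8 and 389 ± 14.1 CPM. In each case the means differed by less than the SD of either group. Pdia3, the disulfide isomerase that works with both lectin chaperones, had 511, 505 and 493 CPM against 511, 529 and 512 CPM. Its groups touched at 511 CPM and counted as not overlapping (log2 fold change 0.09, adjusted p = 0.518).

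Pdia4, another disulfide isomerase, had the largest estimate of this subgroup (ENSMUSG00000025823, chromosome 6, 47796141 to 47813430). Its PAC-CM values of 167, 173 and 174 CPM lay below the kinsenoside values of 201, 187 and 177 CPM. The gap between the groups was small beside the spread of the kinsenoside libraries. The log2 fold change was 0.18 (SE 0.0661, unadjusted p = 0.0250, adjusted p = 0.258), or 1.13-fold with an interval of 1.02-fold to 1.26-fold, and over 14 alternative analyses the adjusted p ran from 0.218 to 0.535.

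Co-chaperones and small ER stress genes had estimates close to 0. Log2 fold changes were 0.07 for Dnajb9 and 0.02 for Dnajb11, both J-domain partners of BiP, and 0.06 for Dnajc3, the J-protein known as p58IPK. Pdia6 had 0.04 and Hyou1, the nucleotide exchange factor of BiP also called GRP170, had -0.01. Sdf2l1, Creld2 and Manf, which are secreted or ER-resident proteins known to be induced by ER stress, had -0.06, -0.02 and -0.00. For these 8 genes the SE lay between 0.0627 (Dnajb11) and 0.118 (Hyou1) and the adjusted p between 0.705 (Dnajc3) and 0.989 (Manf).

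The promoters of this subgroup are shown because they carry the DNA element through which ATF6 and XBP1, with the CCAAT-binding factor NF-Y, act on chaperone genes. Promoter sequences from RefSeq (GRCm38.p6; 250 bases before to 50 after each gene's start) were matched by symbol for 31 of the 36 members, all but Manf, Hyou1, Atf6, Ppp1r15b and Aldh1l2. A script searched both strands for the ER stress response element (ERSE: CCAAT, any 9 bases, CCACG), the shorter ERSE-II (ATTGG, any base, CCACG) and the unfolded protein response element (UPRE: TGACGTGG). Below are the 250 bases before the start of Hspa5, written 5′ to 3′ on the gene's own strand, with the ERSE in capitals.
Hspa5, chr2:34771840-34772089, plus strand: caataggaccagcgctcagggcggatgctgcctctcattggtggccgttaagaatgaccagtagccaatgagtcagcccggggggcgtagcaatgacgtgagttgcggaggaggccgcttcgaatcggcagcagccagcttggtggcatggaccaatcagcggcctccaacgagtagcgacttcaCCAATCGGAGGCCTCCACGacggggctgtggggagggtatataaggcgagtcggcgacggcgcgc

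The same element stood in the promoters of Hsp90b1, Calr, Canx, Pdia6, Dnajc3, Creld2 and Syvn1. Hsp90b1 held it in both orientations. Each line gives the element in capitals with 6 bases on either side, on the gene's own strand, so that an element on the opposite strand starts with CGTGG.
Hsp90b1, chr10:86705632-86705662, minus strand: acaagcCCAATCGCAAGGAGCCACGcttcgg
Hsp90b1, chr10:86705527-86705557, minus strand: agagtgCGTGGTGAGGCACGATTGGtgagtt
Calr, chr8:84847069-84847099, minus strand: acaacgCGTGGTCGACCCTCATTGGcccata
Canx, chr11:50325794-50325824, minus strand: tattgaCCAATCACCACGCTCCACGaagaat
Pdia6, chr12:17266485-17266515, plus strand: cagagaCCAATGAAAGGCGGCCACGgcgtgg
Dnajc3, chr14:118937821-118937851, plus strand: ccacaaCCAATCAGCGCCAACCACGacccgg
Creld2, chr15:88819514-88819544, plus strand: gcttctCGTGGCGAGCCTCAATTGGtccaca
Syvn1, chr19:6046526-6046556, plus strand: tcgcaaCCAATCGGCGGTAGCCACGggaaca

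In all, 7 of the 12 matched promoters of the chaperone subgroup (1 per gene) held an ERSE, as did 1 of the 4 of the degradation genes and 0 of the others, beside 0.119% of 32851 RefSeq promoters of the same length. ERSE-II was found in Dnajb11 and Herpud1, beside 0.0365% of all promoters, and UPRE in no member, beside 0.676%. A match of letters is a description and not a measured binding site. The 8 members with an ERSE had log2 fold changes between -0.06 and 0.07 with kinsenoside.
Dnajb11, chr16:22857846-22857868, plus strand: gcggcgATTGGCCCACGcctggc
Herpud1, chr8:94386371-94386393, plus strand: gcgctgATTGGGCCACGttggac

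The 4 genes of ER-associated degradation had a median log2 fold change of -0.02. Edem1, a lectin that picks out misfolded glycoproteins, was the most abundant of them by CPM (ENSMUSG00000030104, chromosome 6, 108828641 to 108859356). It had 208, 212 and 199 CPM with PAC-CM alone and 215, 200 and 195 CPM with kinsenoside, so the kinsenoside values spanned those of PAC-CM. Its log2 fold change was 0.02 (SE 0.0638, adjusted p = 0.916).

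Sel1l encodes the scaffold of the HRD1 ubiquitin ligase (ENSMUSG00000020964, chromosome 12, 91806043 to 91849157). Its values were 113, 109 and 76.3 CPM with PAC-CM alone and 104, 116 and 76.3 CPM with kinsenoside. In both groups 1 library stood below the other 2, and group means were 99.2 ± 20.0 and 98.5 ± 20.1 CPM (SD, n = 3 per group). The interval of the fold change was accordingly wide, from 0.73-fold to 1.44-fold (adjusted p = 0.966). Syvn1, the HRD1 ligase itself, and Herpud1, a membrane partner of it, had log2 fold changes of -0.06 each (adjusted p = 0.854 and 0.855).

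Among the stress sensors 3 of the 4 estimates lay below 0, with a median log2 fold change of -0.12, and none passed the test. Xbp1, the transcription factor that IRE1 activates by splicing, was at 92.3, 98.9 and 96.5 CPM with PAC-CM alone and at 95.9, 87.9 and 105 CPM with kinsenoside. The kinsenoside values spanned those of PAC-CM (log2 fold change 0.05, SE 0.0810, adjusted p = 0.824). The gene lies on chromosome 11, 5520659 to 5525893 (ENSMUSG00000020484).

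Atf6 (ENSMUSG00000026663, chromosome 1, 170704674 to 170867771) was at 77.1, 74.1 and 80.8 CPM in the PAC-CM libraries. With kinsenoside it was at 60.7, 71.0 and 68.3 CPM. All 3 kinsenoside libraries lay below all 3 PAC-CM libraries, a pattern seen in 15.7% of tested genes. The log2 fold change was -0.17 (SE 0.0774, unadjusted p = 0.0577, adjusted p = 0.353), or 0.89-fold with an interval of 0.79-fold to 1.00-fold, and the adjusted p ran from 0.238 to 0.571 over the alternatives. Ern1, encoding IRE1, was at 36.3 ± 3.81 and 30.9 ± 3.52 CPM (SD, n = 3 per group), with overlapping groups (log2 fold change -0.19, adjusted p = 0.449). Eif2ak3, encoding PERK, was at 20.3 ± 0.821 and 18.7 ± 0.522 CPM. Its groups touched at 19.3 CPM and counted as not overlapping, with kinsenoside below (log2 fold change -0.07, adjusted p = 0.727).

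The ATF4 and CHOP branch held the most uneven members. Its 14 genes took 0.0509% ± 0.00472 of all counts with PAC-CM alone and 0.0528% ± 0.00501 with kinsenoside (SD, n = 3 per group). Levels per kilobase reached from 49.4 CPM for Atf4 to 0.0892 for Phgdh. The estimates lay between -0.36 (Trib3) and 0.96 (Chac1), with a median of 0.07.

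Ppp1r15b, the constitutive subunit that brings a phosphatase to eIF2 alpha, was the most abundant of the branch by CPM (ENSMUSG00000046062, chromosome 1, 133131143 to 133139783). It was at 222, 213 and 210 CPM with PAC-CM alone and at 226, 209 and 208 CPM with kinsenoside (log2 fold change 0.04, SE 0.0620, adjusted p = 0.822). Ppp1r15a (GADD34), the stress-induced subunit of the same phosphatase, was at 37.6 ± 1.39 and 38.6 ± 2.40 CPM (SD, n = 3 per group). Ddit3, which encodes CHOP, was at 26.0 ± 0.447 and 27.3 ± 1.55 CPM. For both genes the groups overlapped, with adjusted p of 0.647 and 0.532.

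Atf4 itself (ENSMUSG00000042406, chromosome 15, 80255184 to 80257541) varied 1.87-fold between its highest and lowest library. It was at 153, 81.4 and 101 CPM with PAC-CM alone and at 138, 142 and 84.1 CPM with kinsenoside. High and low libraries were present in both groups. Of 9155 tested genes whose mean reached 5 CPM, 6.51% had a larger ratio of highest to lowest library, and the median ratio was 1.28. The log2 fold change was 0.16 (SE 0.310, adjusted p = 0.863), with an interval from 0.65-fold to 1.93-fold.

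Atf5, a related factor translated in the same way as ATF4, was at 20.0, 22.2 and 17.0 CPM with PAC-CM alone. With kinsenoside it was at 33.4, 25.8 and 14.2 CPM, so that the kinsenoside group held both the highest and the lowest library (log2 fold change 0.35, SE 0.311, adjusted p = 0.660). Its estimate was 0.06 without kinsenoside replicate 1 and 0.63 without kinsenoside replicate 3 (adjusted p = 0.936 and 0.178). Exon sequence of Atf5 overlaps the nucleoporin gene Nup62 over 82 bases and Il4i1 over 82 bases, both on the opposite strand. Nup62 had 5877 counts in kinsenoside replicate 1, the library where Atf5 was highest, and between 1569 and 1996 counts in the other 5. Il4i1 had 138 counts in that library and between 122 and 342 in the other 5. The labels do not say whether counting used strand, and the part of these overlaps in the Atf5 values was not tested.

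Trib3, a pseudokinase induced by ATF4 and CHOP, was at 6.74, 5.90 and 5.64 CPM with PAC-CM alone. The kinsenoside libraries had 7.25, 3.06 and 3.45 CPM, with replicate 1 above all PAC-CM libraries and the other 2 below them. Its log2 fold change was -0.36 (SE 0.324, adjusted p = 0.662). Without kinsenoside replicate 1 it was -0.86 with an adjusted p of 0.0668, the smallest of any member under any alternative, and leaving out the other libraries gave -0.41 to -0.14 with adjusted p from 0.716 to 0.896.

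**Figure D3:**
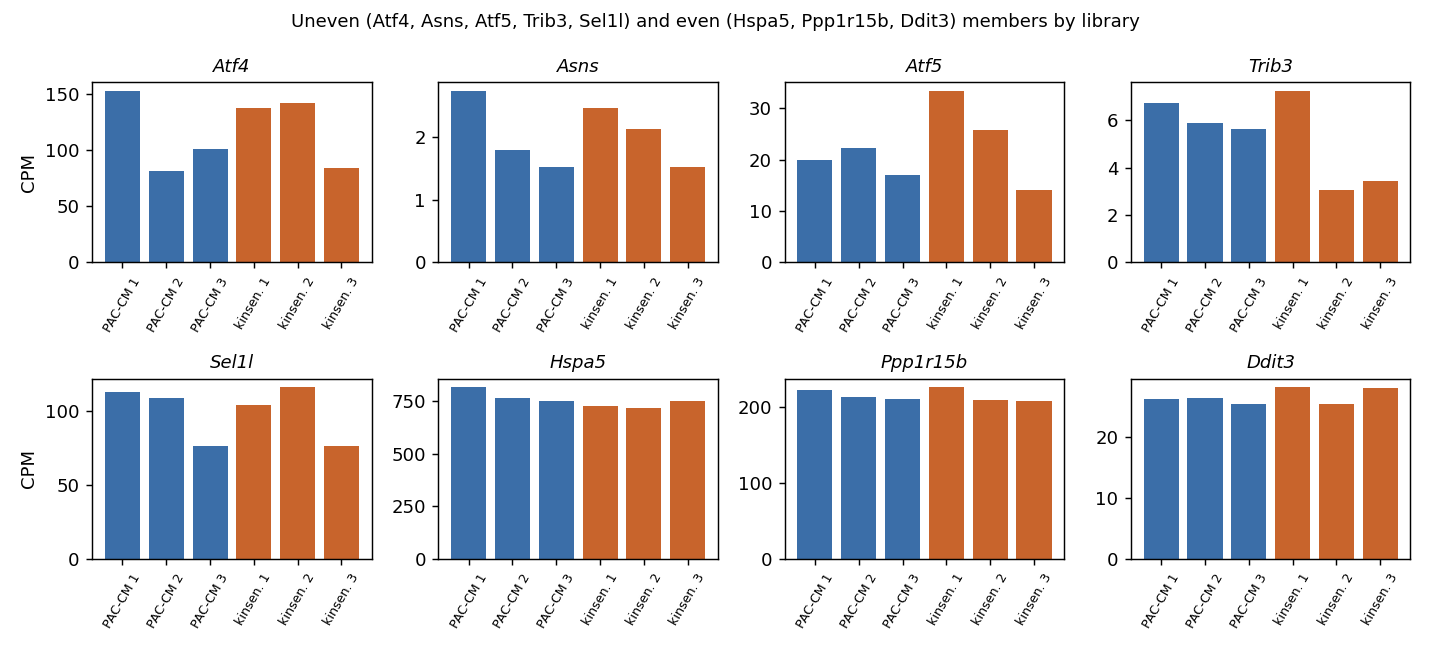
CPM of 5 uneven members (Atf4, Asns, Atf5, Trib3, Sel1l) and 3 even ones (Hspa5, Ppp1r15b, Ddit3) in each library, blue for PAC-CM and orange for PAC-CM with kinsenoside (kinsen.), numbered by replicate; these genes were picked after their values were seen. Atf4 has high and low libraries in both groups, while Trib3 is low in kinsenoside replicates 2 and 3 only.

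Cebpg, the C/EBP partner of ATF4, had the smallest adjusted p of the 36 genes (ENSMUSG00000056216, chromosome 7, 35046422 to 35056573). It was at 50.2, 45.1 and 41.6 CPM with PAC-CM alone and at 50.6, 55.0 and 50 CPM with kinsenoside. PAC-CM replicate 1 reached into the kinsenoside range. The log2 fold change was 0.23 (SE 0.0831, unadjusted p = 0.0238, adjusted p = 0.256), or 1.17-fold with an interval of 1.03-fold to 1.34-fold. Over the alternatives its adjusted p ran from 0.229 to 0.503.

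The branch also holds enzymes of amino acid and folate metabolism, known targets of ATF4. Asns, asparagine synthetase, had 118, 85 and 67 counts in the PAC-CM libraries and 107, 90 and 63 counts with kinsenoside (log2 fold change 0.07, adjusted p = 0.946). Its high and low libraries were in both groups. Psat1, of serine synthesis, was at 5.97 ± 0.326 and 5.76 ± 1.52 CPM (SD, n = 3 per group), and Pck2, the mitochondrial PEP carboxykinase, at 5.98 ± 0.994 and 5.11 ± 0.539 CPM. Neither passed (adjusted p = 0.996 and 0.651). Phgdh, the first enzyme of serine synthesis, had 17, 11 and 3 counts against 12, 8 and 7 counts, too few to show any but a large difference (interval 0.36-fold to 2.52-fold). The leucine-responsive stress protein gene Sesn2 was at 32.0 ± 1.59 and 30.8 ± 1.65 CPM (adjusted p = 0.970).

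The largest estimates of the 36 genes came from a pair with few counts. Chac1, which breaks down glutathione, had 7, 12 and 13 counts with PAC-CM alone and 24, 11 and 22 counts with kinsenoside. One kinsenoside library lay inside the PAC-CM range (log2 fold change 0.96, SE 0.453, unadjusted p = 0.0652, adjusted p = 0.368). Aldh1l2, a mitochondrial folate enzyme (ENSMUSG00000020256, chromosome 10, 83487450 to 83534140), had 26, 20 and 28 counts against 50, 29 and 43 counts. Its groups did not overlap, a pattern with kinsenoside above in 6.86% of tested genes. Its log2 fold change was 0.84 (SE 0.325, unadjusted p = 0.0305, adjusted p = 0.283), and the adjusted p ran from 0.272 to 0.556 over the 13 alternatives that tested it. Exons of Aldh1l2 overlap those of D10Wsu102e on the opposite strand over 14.1% of their length, and that gene had 759 to 919 counts, so single reads may belong to either.

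Promoters of this branch are shown for the element that ATF4 binds with a C/EBP partner (CARE, searched as TGATGNAA on both strands). It was found in Trib3, Chac1, Asns and Pck2, 4 of the 12 matched genes of the branch, and in Herpud1. Of all genes with a RefSeq promoter of this length 4.51% held it, or 3.97% of promoters. The 250 bases before the start of Asns come first, with the element in capitals, followed by the element with 6 bases on either side in the others. An element on the opposite strand reads as TTNCATCA.
Asns, chr6:7693210-7693459, minus strand: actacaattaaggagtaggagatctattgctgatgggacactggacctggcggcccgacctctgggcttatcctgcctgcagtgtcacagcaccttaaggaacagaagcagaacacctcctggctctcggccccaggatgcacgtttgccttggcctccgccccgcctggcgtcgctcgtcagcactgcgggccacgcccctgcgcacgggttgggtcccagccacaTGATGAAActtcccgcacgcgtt
Herpud1, chr8:94386311-94386330, plus strand: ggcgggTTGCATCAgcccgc
Trib3, chr2:152344033-152344052, minus strand: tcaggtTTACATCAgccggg
Chac1, chr2:119351043-119351062, plus strand: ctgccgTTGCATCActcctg
Pck2, chr14:55540157-55540176, plus strand: tcaaagTTACATCAgtatct

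The 5 members with a CARE had log2 fold changes between -0.36 and 0.96 and SEs between 0.117 and 0.453, wider than those of the ERSE members, whose SEs lay between 0.0589 and 0.114. They were also less abundant, at 0.21 to 4.49 CPM per kilobase of exon against 10.2 to 314. None of the 31 members with a matched promoter held both an ERSE and a CARE, and Herpud1 held an ERSE-II and a CARE.

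Some libraries held the highest or lowest value of their group for many members at once. In the PAC-CM group, 24 of the 36 genes were lowest in replicate 3, beside 35.6% of all tested genes, and 18 were highest in replicate 1, beside 33.7%. In the kinsenoside group, 20 were highest in replicate 1, beside 36.1% of all tested genes, and 18 lowest in replicate 3, beside 37.3%. The median of the 36 log2 CPM values, each relative to its gene's mean, was 0.02, 0.03 and -0.08 in the 3 PAC-CM libraries, in replicate order, and 0.09, -0.04 and -0.04 in the kinsenoside libraries. These medians overlap between the groups.

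**Figure D4:**
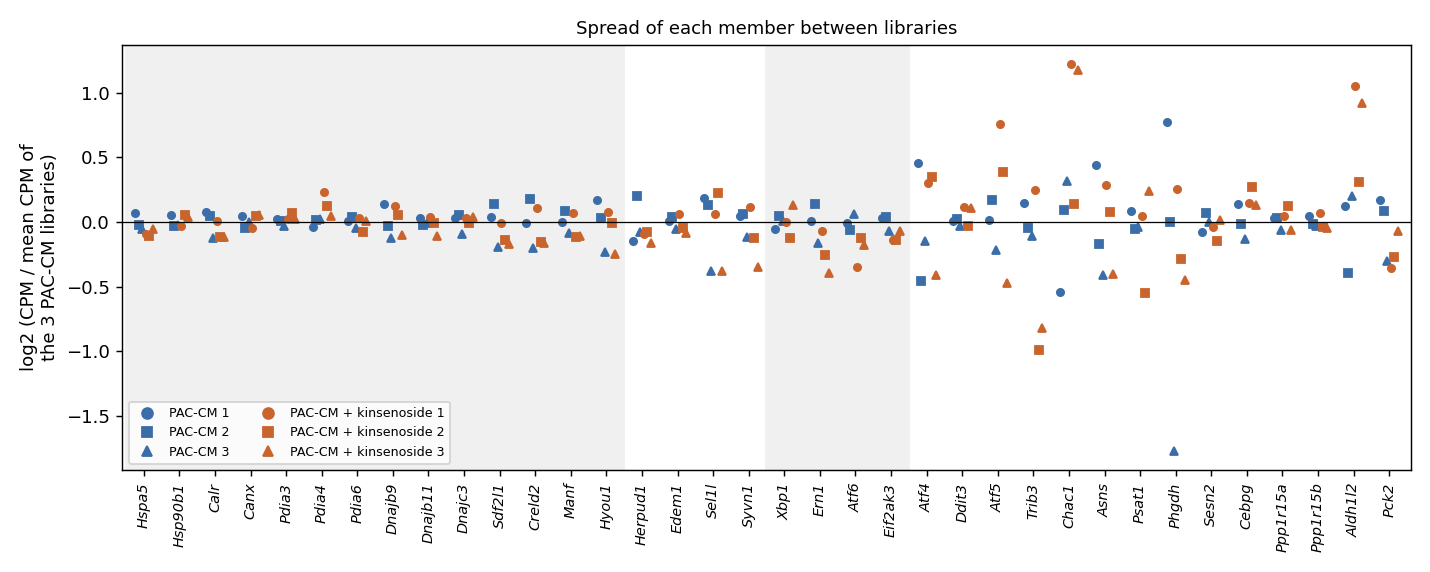
Each member's CPM in each library relative to its mean over the 3 PAC-CM libraries, on a log2 scale; colour gives the group and marker shape the replicate number. Chaperones lie close to 0 in all libraries. Members of the ATF4 and CHOP branch such as Atf4, Chac1 and Phgdh spread widely within both groups, and Trib3 within the kinsenoside group.

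After subtracting group means, Creld2, Manf and Edem1 followed each other over the 6 libraries (Pearson's r of log2 CPM 0.95 for Edem1 with Creld2 and 0.97 for Manf with either), and Ern1 followed Edem1 with r = 0.97. The 6 points share libraries, 630 pairs of members were looked at, and these were among the highest, so the values describe these libraries only. The highest of all was Asns with Dnajb9 (r = 1.0). Atf6 ran opposite to the same genes, with r of -0.97 for Manf, -0.95 for Edem1 and -0.9 for Creld2. Atf4 had r between -0.88 (Sesn2) and 0.86 (Asns) with the other genes of its branch.

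Other genes of the same pathways were drawn from 5 lists of related genes, and none of their tested members passed the test either. Of 28 tested ER folding genes outside the 36, 3 had an unadjusted p under 0.05 (10.7%, against 14.9% of all tested genes). Erp29, an ER lumen protein, was higher (log2 fold change 0.26, adjusted p = 0.188). Mogs, a glucosidase that trims N-glycans, was lower at -0.38 (adjusted p = 0.260), as was Pdia5. Of 25 tested degradation genes 1 had such a p (4.0%), the ubiquitin ligase gene March6 at -0.18 (adjusted p = 0.231). The smallest p after it was that of Stt3b, a catalytic subunit of the oligosaccharyltransferase, at -0.15 (adjusted p = 0.343). Median log2 fold changes were 0.01 in both lists.

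Among 23 tested sensors, eIF2 kinases and eIF2 subunits, 3 had an unadjusted p under 0.05 (13.0%, against 14.9% of all tested genes), 2 lower and 1 higher. Estimates of the list ran from -0.56 to 0.18. The smallest adjusted p was 0.106, for Traf2, an adaptor that IRE1 recruits. It was at 47 ± 0.651 CPM with PAC-CM alone and 37.0 ± 2.47 CPM with kinsenoside (SD, n = 3 per group), a log2 fold change of -0.30. Its kinsenoside libraries lay wholly below, a pattern seen in 15.7% of tested genes. Eif2s2, the beta subunit of eIF2, had 0.18 (adjusted p = 0.221). Traf2 also serves TNF receptors.

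The 28 tested ATF4 and CHOP targets outside the 36 were the most scattered list. At an unadjusted p under 0.05 there were 10 of them (35.7%, against 14.9% of all tested genes), 7 lower and 3 higher. The groups did not overlap for 11 (39.3%, against 22.5%), with kinsenoside below in 10 and above in 1 (15.7% and 6.86% of all tested genes). Overlap was read on CPM without TMM factors, which places kinsenoside slightly lower. The list was chosen with earlier results of these data known, so these shares are a description and not a test. Slc1a5, a glutamine transporter, was at 9.04 ± 1.12 CPM with PAC-CM alone and 5.63 ± 0.636 CPM with kinsenoside (log2 fold change -0.64, SE 0.137, adjusted p = 0.0926). Tnfrsf10b, a death receptor induced by CHOP, was at 1.18 ± 0.207 and 0.569 ± 0.0546 CPM (log2 fold change -1.0, SE 0.270, adjusted p = 0.147). The list's estimates ran from -1.0 to 0.68 with a median of -0.04. Of 12 cytosolic tRNA synthetase genes, which ATF4 is known to induce, 3 (25.0%) had an unadjusted p under 0.05, 2 lower and 1 higher. Their median was -0.00. Iars was at -0.18, Gars at -0.22 and Eprs at 0.20 (adjusted p = 0.315, 0.323 and 0.322). Kinsenoside lay wholly below in 3 of the 12 and wholly above in 0.

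**Figure D5:**
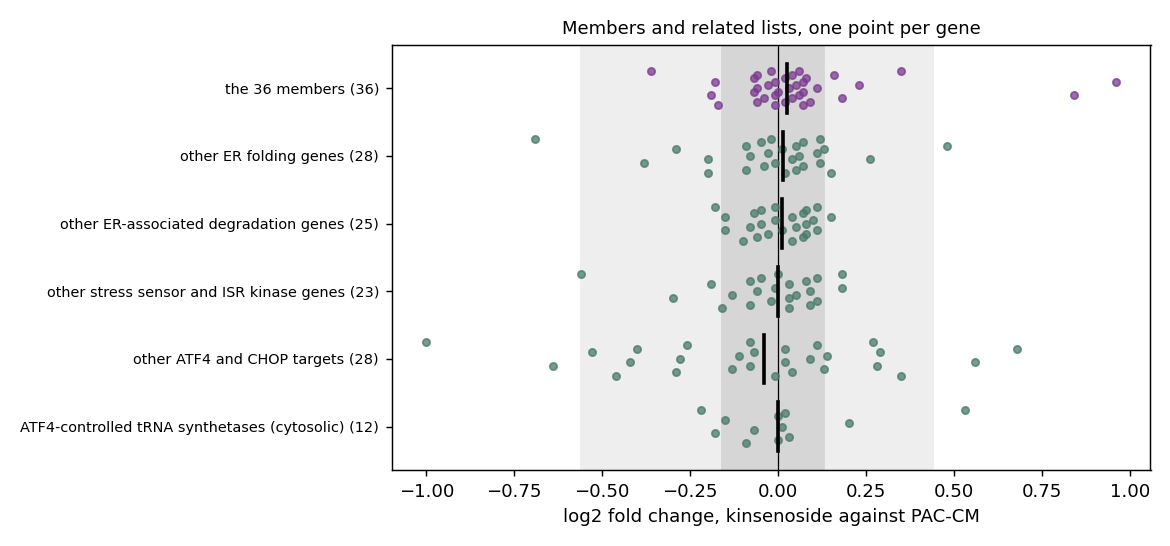
Log2 fold change, kinsenoside against PAC-CM, of every tested gene of the 36 members and of 5 related lists (1 point per gene, number of genes in brackets, black bars for medians); the dark and light grey bands hold the middle 50% and 90% of all 13901 tested genes. All 6 medians lie between -0.04 and 0.03, and the other ATF4 and CHOP targets reach from -1.0 to 0.68.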

How the data were processed

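RNA-seq gene counts of 6 macrophage libraries were used, 3 per group by the labels' titles. The table the authors deposited holds whole-number counts per Ensembl gene, not normalized. Tools named in the submitters' processing notes, without role or order, are STAR, StringTie (version 1.3.1c), DESeq2 (1.16.1), FastQC (0.11.2) and bcl2fastq (2.20), with build GRCm38. The counting tool and its use of strand are not given in the sources used here. A deposited count of 3 occurs more often than one of 2 (6202 and 5128 values), so the counts may be rounded estimates, and reads of overlapping gene models may be divided differently between libraries.

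The members and gene lists were chosen with earlier results of these data known. All 36 members are accounted for. Values in every library are given for members with an unadjusted p under 0.05 and the 2 most abundant of each subgroup by CPM, and for Pdia3, Atf5, Trib3, Asns, Chac1 and Phgdh, chosen after their values were seen. Of each related list the 2 of smallest p are named (Pdia5 and the other names given beside counts were added afterwards).

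Counts were tested with edgeR 4.0.16 (R 4.3.3): filterByExpr, which kept 13901 genes, TMM scaling, robust quasi-likelihood fits on the group with 4 residual degrees of freedom, two-sided, with Benjamini-Hochberg adjustment over all genes tested and a threshold of 0.05. The SE is the size of the log2 fold change over the square root of F. The 1.5-fold bound for intervals was chosen after the data were seen. CPM are counts over library totals, and log2 CPM used TMM factors and a prior count of 2. The factors were 1.013 to 1.019 for PAC-CM and 0.9787 to 0.9904 for kinsenoside. CPM, percentages of counts and the overlap of groups do not use them, so kinsenoside lies slightly lower there than in the fold changes. Exon lengths and coordinates are of GENCODE M21. The exon length of a gene merges all its annotated exons and may exceed that of the transcript expressed here. The test was checked on simulated counts. No 2 libraries were alike within sampling noise (chi-square per degree of freedom 24.1 to 58.7). Alternatives were DESeq2 1.42.0, limma-voom (limma 3.58.1), other scaling and filters, a replicate block, a non-robust fit and leaving out each library.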

Additional observations from a re-analysis of the deposited data

How the results depend on the processing

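None of the 36 members was called under any of the 14 alternatives, which were 8 other settings and 6 fits that each left out a library. Of 500 member estimates under these alternatives 43 had the opposite sign, in 18 members, and none of them passed the threshold. The count of calls over all genes, 71 (29 higher, 42 lower), moved more: DESeq2 gave 490 (227 higher, 263 lower), limma-voom 39 (19 higher, 20 lower), a non-robust fit 36 (19 higher, 17 lower), and the replicate block 42 (17 higher, 25 lower). Scaling by library totals gave 88 (25 higher, 63 lower). Leaving out 1 library gave 13 to 98 calls (8 to 47 higher, 5 to 51 lower), with 13 when PAC-CM replicate 1 was left out, 14 for PAC-CM replicate 3 and 20 for kinsenoside replicate 2. The causes were not tested. The labels do not say whether replicate numbers pair the samples. Over all tested genes, same-numbered libraries had correlations of deviations of 0.009, -0.101 and 0.135, and not every library correlated best with its own number. Among the members, replicate 1 was most often highest and replicate 3 most often lowest in both groups. With 3 libraries per group these values cannot settle whether the samples were paired.

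Opposite signs were, with library totals, -0.0089 for Pdia6, -0.0221 for Dnajb11, -0.0223 for Edem1, -0.0099 for Sel1l and -0.0049 for Ppp1r15b (log2 fold changes). RLE size factors and DESeq2 both gave 0.003 for Manf and 0.0024 for Psat1. For Phgdh, limma-voom gave 0.19 and the replicate block 0.038. Leaving out each library in turn gave, for the members whose sign turned, -0.0874 to 0.0052 for Calr, -0.0128 to 0.0591 for Dnajb11, -0.14 to 0.0196 for Sdf2l1, -0.11 to 0.0865 for Creld2, -0.0674 to 0.0438 for Manf, -0.11 to 0.0825 for Hyou1, -0.13 to 0.0568 for Herpud1, -0.0194 to 0.0481 for Edem1, -0.12 to 0.18 for Sel1l, -0.19 to 0.0416 for Syvn1, -0.0206 to 0.12 for Xbp1, -0.0145 to 0.45 for Atf4, -0.10 to 0.35 for Asns, -0.18 to 0.19 for Psat1, -0.50 to 0.52 for Phgdh, -0.0494 to 0.0345 for Sesn2 and -0.0013 to 0.0624 for Ppp1r15b. The median of the ATF4 and CHOP branch went from 0.07 to 0.21 without PAC-CM replicate 1. At this depth Phgdh had 3 to 17 counts, Chac1 7 to 24 and Aldh1l2 20 to 50, and how much counting error and library spread each add to the wide intervals was not tested.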
